A study of Mus musculus with 7 samples.

Results

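The genes described here encode the proteins that bring fatty acids from the blood into heart muscle. They are Cd36, the binding protein genes Fabp3, Fabp4 and Fabp5, the transport protein genes Slc27a1 and Slc27a4, the lipase gene Lpl, its anchor Gpihbp1, its inhibitor Angptl4, and the lipoprotein receptor gene Vldlr. These 10 genes were chosen by symbol, and all 10 are among the 13788 genes of the table. RNA was sequenced from whole hearts of C57BL/6 mice at postnatal day 0 in 2 groups. The first group is wild type (WT, n = 3, numbered 1, 2 and 28). The other, labelled edKO (n = 4, numbered 5, 6, 15 and 33), lacks Rxra and Rxrb, genes of retinoid X receptors, in its cardiomyocytes (RXRab-/-). The sources used here do not state the Cre driver, the alleles, the deleted exons or whether WT mice carry an allele. By its title, the study asks how γ-linolenic acid taken in with milk bears on how the heart's metabolism matures.

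As background, fatty acids reach the heart either bound to albumin or inside triglyceride-rich lipoproteins. Lipoprotein lipase is made by cardiomyocytes, carried by GPIHBP1 across capillary endothelial cells to the vessel wall, and blocked by the secreted protein ANGPTL4. The freed fatty acids cross the endothelium and the muscle membrane with the help of CD36 and the transport proteins, and small binding proteins carry them in the cytosol. Around birth the heart turns from glucose and lactate towards fatty acids, and several of these genes are known targets of PPAR receptors, which bind DNA as partners of retinoid X receptors. By textbook knowledge, Fabp3, Lpl and Slc27a1 are taken here as genes of cardiomyocytes, Fabp4, Fabp5 and Gpihbp1 as genes of capillary endothelium, and Cd36, Slc27a4, Vldlr and Angptl4 as genes of both.

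Promoter sequence is shown for 3 genes, because they differ in response: Fabp3 and Slc27a1, both lower in edKO, and Cd36, which did not pass the test. Each line gives the 250 bases before a RefSeq transcription start on GRCm38.p6, written 5′ to 3′ on the strand of the gene. Capitals mark the best match to DR1, the direct repeat of AGGTCA spaced by 1 base that PPAR and retinoid X receptor pairs bind, where it has at most 3 mismatches over 12 fixed letters on either strand. The Fabp3 window is chr4:130308488-130308737 on the plus strand, the Slc27a1 window chr8:71568621-71568870 on the plus strand and the Cd36 window chr5:17835897-17836146 on the minus strand.
Fabp3: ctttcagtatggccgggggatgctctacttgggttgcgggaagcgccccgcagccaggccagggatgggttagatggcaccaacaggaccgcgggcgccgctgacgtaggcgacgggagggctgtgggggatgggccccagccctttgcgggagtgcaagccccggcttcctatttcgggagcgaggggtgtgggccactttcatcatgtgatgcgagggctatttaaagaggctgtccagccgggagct
Slc27a1: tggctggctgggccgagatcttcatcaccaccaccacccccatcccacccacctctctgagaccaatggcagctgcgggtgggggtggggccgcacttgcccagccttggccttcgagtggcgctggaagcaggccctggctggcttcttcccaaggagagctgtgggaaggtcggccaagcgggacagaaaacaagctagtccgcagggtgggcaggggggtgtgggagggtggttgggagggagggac
Cd36: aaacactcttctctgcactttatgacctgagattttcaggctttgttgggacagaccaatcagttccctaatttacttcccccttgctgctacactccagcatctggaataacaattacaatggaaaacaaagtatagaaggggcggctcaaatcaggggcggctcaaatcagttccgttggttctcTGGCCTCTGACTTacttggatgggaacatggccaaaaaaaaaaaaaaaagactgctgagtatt
RefSeq windows of 250 bases before to 50 after a start were matched for 5 of the 10 genes, in 8 windows. They belong to Fabp3, Slc27a1, Cd36, Slc27a4 and Vldlr, while Fabp4, Fabp5, Lpl, Gpihbp1 and Angptl4 were not matched. Cd36 held a DR1 match with 2 mismatches, TGGCCTCTGACTT, on the opposite strand and beginning 63 bases before the start. Of all 32851 windows, 3.86% held a match that close and 24.6% held one with at most 3 mismatches. The other 7 windows, those of Fabp3 and Slc27a1 among them, held none within 3. DR4, the direct repeat of AGGTCA spaced by 4 bases that LXR and retinoid X receptor pairs bind, matched with 3 mismatches in 2 of the Slc27a1 windows, against 21.9% of all windows. A match is a description of letters and not a binding site, and the windows cover no distant element.

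Levels are given as the authors' normalised reads per 1000000, per library or as the mean ± SD over n = 3 WT and n = 4 edKO hearts. The reads recovered from them came to between 12108464 and 24912403 per library. A gene with 3 reads would stand at 0.143 to 0.305 on this scale, and all 10 genes were far above it. Differences were tested with limma on log2(value + 1) over all 13788 genes, with Benjamini-Hochberg adjustment. Of the 10 genes, Fabp3, Slc27a1 and Angptl4 were lower in edKO, Lpl was higher, and 6 did not pass an adjusted p of 0.05. Over all genes, 2.13% were called lower and 2.08% higher, 4.21% in all. That count of 580 genes was 1177 without edKO replicate 33, and between 222 and 252 when WT replicate 1, 2 or 28 was left out. Without edKO replicate 5 or 15 it was 364 and 345. The groups did not overlap for the same 4 of 10 genes, against 17.4% of all genes. The 3 genes with every edKO heart below every WT heart compare with 9.04% of all genes, and the 1 gene with every edKO heart above with 8.41%. The median log2 difference was -0.05 over the 10 genes and 0.00 over all genes. As the genes were picked with earlier results of these data known, these shares describe them and are no test of the set. In whole hearts, fewer cells of a type and less RNA per cell cannot be told apart.

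**Figure D1:**
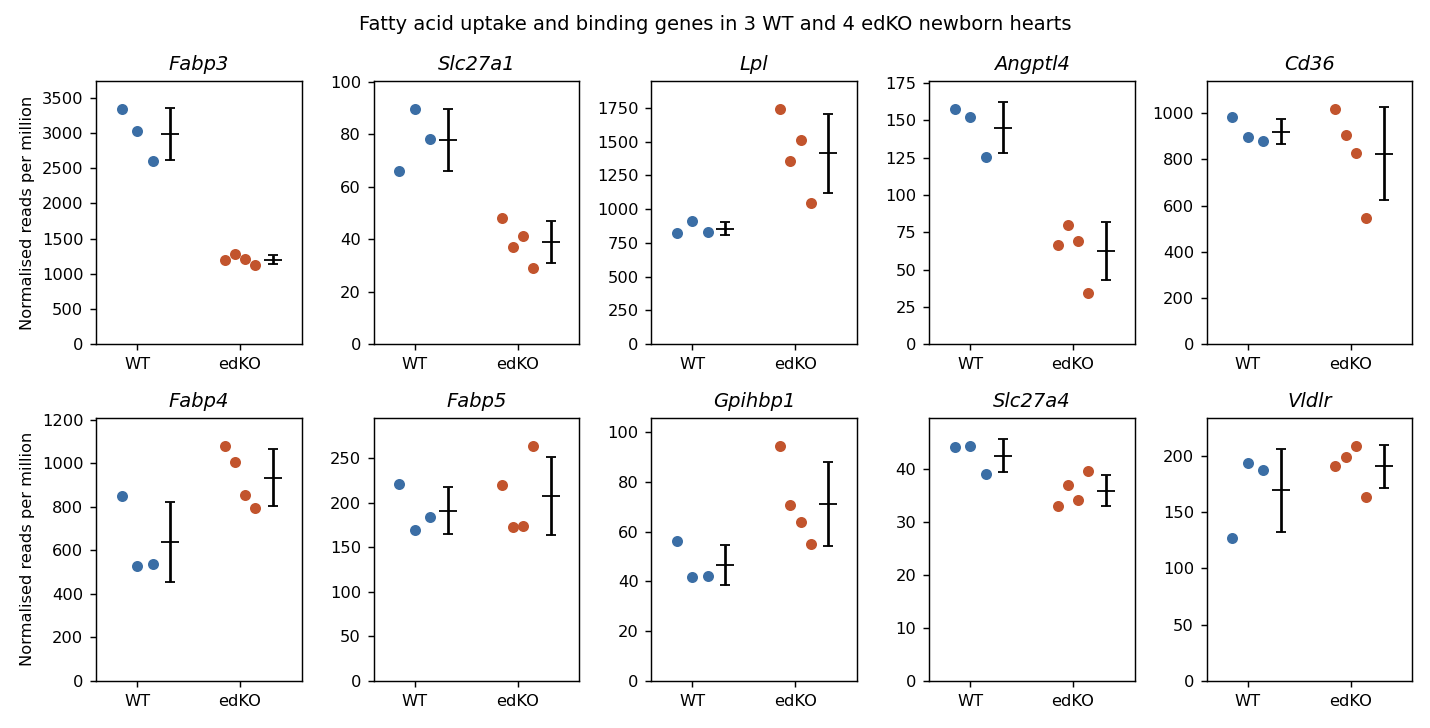
Normalised reads per 1000000 (vertical axis, from 0) of each gene in the 3 WT (blue) and 4 edKO (orange) hearts; each point is a heart, and the black bar and whiskers are the mean ± SD. The groups separate for Fabp3, Slc27a1, Lpl and Angptl4, and overlap for the other 6 genes.

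The cytosolic binding proteins did not move together. Fabp3, the form of heart and skeletal muscle, stood at 3335, 3024 and 2604 in WT replicates 1, 2 and 28, and at 1193, 1280.0, 1204 and 1131 in edKO replicates 5, 6, 15 and 33. Every edKO heart lay below every WT heart, and the edKO hearts lay closer together (SD 61.2) than the WT hearts (SD 367). The level fell 2.49-fold by the ratio of means, a log2 difference of -1.31 (SE 0.12, limma adjusted p = 0.00014). Fabp3 (chromosome 4, 130308595 to 130315463 on GRCm38) shares 32.1% of its 61-nt transcript windows with other genes, mostly the pseudogene Fabp3-ps1 and the overlapping gene Zcchc17. The listed level of Fabp3-ps1 was between 0.0433% and 0.182% of that of Fabp3 in each library, and neither it (limma adjusted p = 0.387) nor Zcchc17 (0.451) passed the test.

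Fabp4 and Fabp5 are known from capillary endothelium, and also from fat cells and macrophages. Fabp4 stood at 848, 529.9 and 536 in WT replicates 1, 2 and 28 and at 1079, 1007, 855 and 795 in edKO replicates 5, 6, 15 and 33. Only WT replicate 1 reached into the edKO range. The log2 difference was 0.58 (95% confidence interval 0.20 to 0.95, limma adjusted p = 0.090), which did not pass. It was called without WT replicate 1 (log2 difference 0.80, adjusted p = 0.018) and without edKO replicate 33 (0.65, adjusted p = 0.042).

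Fabp5 lies on chromosome 3 as well, 187 kb from Fabp4. Its level was 220.4, 169 and 184 in WT replicates 1, 2 and 28 and 219.5, 172, 173 and 264 in edKO replicates 5, 6, 15 and 33. The ranges overlapped almost fully, with a log2 difference of 0.10 (95% confidence interval -0.23 to 0.44, limma adjusted p = 0.753). Of its 61-nt windows 4.11% occur in other genes, among them predicted genes and Fabp5l2.

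Taken per kilobase of the principal transcript, Fabp3 made up 77.6%, 82.8% and 80.1% of the summed level of the 3 binding protein transcripts in WT replicates 1, 2 and 28. In edKO replicates 5, 6, 15 and 33 it made up 50.4%, 54.5%, 56.4% and 54.3%. The share of Fabp4 was 13.3% to 18.1% in WT and 35.1% to 41.9% in edKO, and that of Fabp5 was 3.86% to 4.72% and 6.12% to 10.6%. As parts of a whole, the shares of Fabp4 and Fabp5 rise when Fabp3 falls, and neither gene passed the test by its own level. The summed level per kilobase was 4536 ± 642 in WT and 2713 ± 178 in edKO, and every edKO heart lay below every WT heart. These shares depend on the transcript length taken. By the length of all annotated exons, a choice made after seeing the data, Fabp3 made up 94.2% to 95.7% in WT and 82.8% to 85.9% in edKO, and Fabp4 3.07% to 4.39% and 10.9% to 13.7%. Within a library the ratio of Fabp3 to Fabp4 lay between 3.93 and 5.71 in WT and between 1.11 and 1.42 in edKO. This ratio does not depend on the scaling between libraries. It was 3.69-fold lower in edKO in the mean of logs (log2 difference -1.88, exact permutation test, 2-sided, p = 0.0286, the smallest that 35 assignments allow, and 0.0643 adjusted over the 9 ratios computed). Fabp3 lay wholly lower in edKO and Fabp4 overlapped only slightly, so this ratio had to separate the groups. Its p is no separate support.

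**Figure D2:**
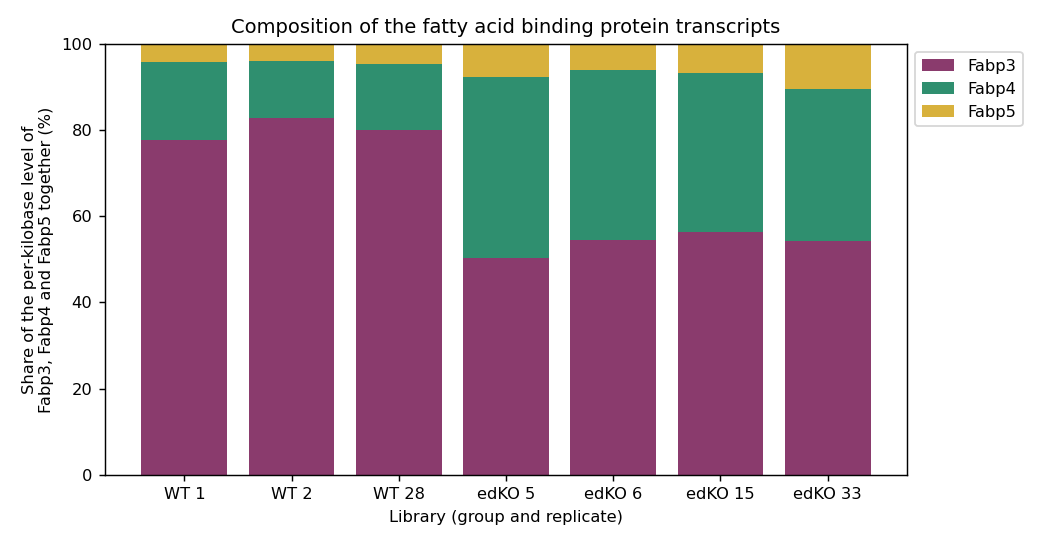
Share of Fabp3, Fabp4 and Fabp5 in their summed level per kilobase of principal transcript (vertical axis, percent) in each library (horizontal axis). Fabp3 holds 77.6% to 82.8% in the WT libraries and 50.4% to 56.4% in the edKO libraries.

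At the membrane, Slc27a1 fell while Cd36 and Slc27a4 did not pass the test. Slc27a1 encodes FATP1, a membrane protein that takes up long-chain fatty acids and joins them to coenzyme A. It stood at 65.9, 89.6 and 78.2 in WT replicates 1, 2 and 28 and at 48.0, 37.2, 41.3 and 28.9 in edKO replicates 5, 6, 15 and 33. All edKO hearts were below all WT hearts. The fall was 2.0-fold by the ratio of means, a log2 difference of -1.0 (SE 0.16, limma adjusted p = 0.0058).

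Cd36 encodes the fatty acid translocase, the scavenger receptor through which much of the heart's fatty acid uptake passes. It was at 984, 895 and 881 in WT replicates 1, 2 and 28 and at 1017, 905, 828 and 547 in edKO replicates 5, 6, 15 and 33. The edKO range enclosed the WT range. The log2 difference was -0.19 (95% confidence interval -0.59 to 0.20, limma adjusted p = 0.596), and it was -0.01 without edKO replicate 33. This interval holds neither the fall of Fabp3 nor that of Slc27a1.

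Slc27a4 encodes FATP4, a related transport protein. Its level was 44.3, 44.4 and 39.0 in WT replicates 1, 2 and 28 and 33.1, 37.0, 34.2 and 39.6 in edKO replicates 5, 6, 15 and 33. Only edKO replicate 33 lay above the lowest WT heart. The log2 difference was -0.24 (95% confidence interval -0.46 to -0.01, limma adjusted p = 0.231) and did not pass after adjustment.

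In the lipase system the enzyme rose and its inhibitor fell. Lpl stood at 822, 909 and 832 in WT replicates 1, 2 and 28 and at 1741, 1354, 1514 and 1049 in edKO replicates 5, 6, 15 and 33. The groups did not overlap, and edKO replicate 33 was the nearest to WT. The level rose 1.66-fold by the ratio of means, a log2 difference of 0.70 (SE 0.15, limma adjusted p = 0.029). Lpl lost its call when WT replicate 1, 2 or 28 was left out (adjusted p of 0.104, 0.095 and 0.115), or edKO replicate 5 or 15 (0.067 and 0.077), while the log2 difference stayed between 0.60 and 0.84.

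Angptl4, which encodes the secreted inhibitor and is induced by fasting and by fatty acids, moved the other way. It was at 157, 152 and 126 in WT replicates 1, 2 and 28 and at 66.2, 80.02, 69.4 and 34.5 in edKO replicates 5, 6, 15 and 33. Each edKO heart lay below each WT heart, with edKO replicate 33 the lowest. The level fell 2.32-fold by the ratio of means, a log2 difference of -1.26 (SE 0.23, limma adjusted p = 0.012). Leaving out WT replicate 1 or WT replicate 2 ended the call (adjusted p 0.0695 and 0.066). The ratio of Angptl4 to Lpl within a library was 0.192, 0.167 and 0.151 in WT replicates 1, 2 and 28 and 0.0380, 0.0591, 0.0458 and 0.0329 in edKO replicates 5, 6, 15 and 33. That ratio was 3.94-fold lower in edKO (log2 difference -1.98, exact permutation test, 2-sided, p = 0.0286, adjusted p = 0.0643). Angptl4 lay wholly lower and Lpl wholly higher in edKO, so this ratio had to separate the groups, and its p is no separate support.

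Gpihbp1, the endothelial anchor of the lipase, stood at 56.1, 41.8 and 42.0 in WT replicates 1, 2 and 28 and at 94.4, 70.6, 64.0 and 54.9 in edKO replicates 5, 6, 15 and 33. WT replicate 1 lay just above the lowest edKO heart, and the other hearts separated. The log2 difference was 0.58 (95% confidence interval 0.21 to 0.96, limma adjusted p = 0.085), which did not pass. Without edKO replicate 33 it was 0.69 and was called (adjusted p = 0.021). The ratio of Lpl to Gpihbp1 was 14.7, 21.8 and 19.8 in WT replicates 1, 2 and 28, and 18.4, 19.2, 23.7 and 19.1 in edKO replicates 5, 6, 15 and 33. The groups overlapped in this ratio (log2 difference 0.11, exact permutation test, 2-sided, p = 0.600, adjusted p = 0.600).

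Vldlr encodes a receptor that binds triglyceride-rich lipoproteins and works beside the lipase. It was at 127, 194 and 187 in WT replicates 1, 2 and 28 and at 191, 198, 209 and 163 in edKO replicates 5, 6, 15 and 33. A single WT heart was low and the others overlapped, with a log2 difference of 0.19 (95% confidence interval -0.13 to 0.50, limma adjusted p = 0.518).

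**Figure D3:**
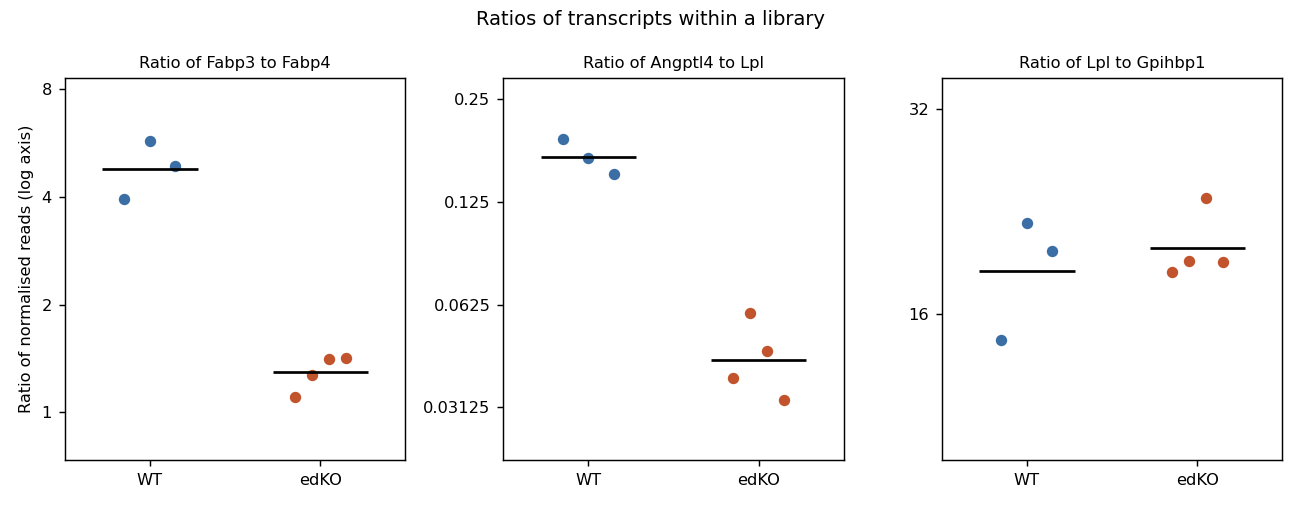
Ratios of normalised reads within each library (vertical axes, log scale) for Fabp3 to Fabp4, Angptl4 to Lpl and Lpl to Gpihbp1; each point is a heart and the line is the geometric mean of its group. The first 2 ratios separate WT from edKO, and the ratio of Lpl to Gpihbp1 overlaps.

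Levels per kilobase of principal transcript gave an order in WT. Fabp3 was first at 3630.3 ± 445, followed by Fabp4 at 712 ± 203, Cd36 at 271 ± 16.4, Lpl at 208 ± 11.6 and Fabp5 at 194 ± 26.8. Then came Gpihbp1 at 56.5 ± 9.92, Angptl4 at 43.9 ± 5.17, Slc27a1 at 27.9 ± 4.23, Vldlr at 21.2 ± 4.62 and Slc27a4 at 10.5 ± 0.757. Among neighbours in that order, the WT ranges overlapped for Lpl and Fabp5 and for Slc27a1 and Vldlr. In edKO, Fabp3 was still first at 1460.4 ± 74.4 and Fabp4 second at 1043 ± 147. Lpl came next at 344 ± 70.7 and overlapped Cd36 at 242 ± 58.9, which overlapped Fabp5 at 209.9 ± 44.2. Further down, Vldlr (23.9 ± 2.43) overlapped Angptl4 (18.9 ± 5.92), which overlapped Slc27a1 (13.9 ± 2.86). Transcript lengths from the annotation need not be those used in these hearts. By the length of all annotated exons instead, Cd36 exceeded Fabp4 in both groups (256.3 against 142 in WT, and 229.5 against 208 in edKO). By that length Angptl4 (41.0) also exceeded Gpihbp1 (18.3) in WT, and Vldlr (16.8) exceeded Slc27a1 (13.3). In edKO Slc27a4 (8.15) then exceeded Slc27a1 (6.66).

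By cell type, 2 of the 3 cardiomyocyte genes were lower in edKO and 1 was higher, beside 2.13% and 2.08% of all genes. None of the 3 endothelial genes was called by limma, and all 3 had positive differences. Of the 4 genes of both, Angptl4 was called. The difference between the cell types was not tested, and the counts depend on the fit. Fabp4 and Gpihbp1 were called with library weights, with DESeq2 and without edKO replicate 33, and Lpl lost its call in 7 of 19 other fits. Summed over 12 cardiomyocyte markers, the level was 49468 to 54533 in WT and 50405 to 53348 in edKO, and 0 of 12 were called (median log2 difference 0.01). Tnnt2, the cardiac troponin T gene, was at 7446 ± 704 and 7696 ± 521, and Actc1, cardiac actin, at 8873 ± 1116 and 8758 ± 1138. Relative to this sum, Fabp3 was 2.45-fold lower in edKO (exact permutation test, 2-sided, p = 0.0286, adjusted p = 0.0643) and Slc27a1 2.0-fold lower (exact permutation p = 0.0286, adjusted p = 0.0643). Lpl was 1.65-fold higher relative to it (exact permutation p = 0.0571, adjusted p = 0.103). These 3 genes separated the groups by themselves and the marker sum varied little, so the ratios had to separate them too. Their p is no separate support.

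Over 12 endothelial markers the summed level was 1423 to 1792 in WT and 1575 to 1894 in edKO. None was called, 10 of 12 had positive differences, and the median was 0.18 on the log2 scale. Pecam1, an adhesion protein of endothelium, was at 219.9 ± 21.4 and 226 ± 23.3, and Cdh5, its cadherin, at 308 ± 44.5 and 306 ± 36.5. The lowest p in the list belonged to Robo4, Egfl7 and Tie1, receptors and a secreted protein of endothelium, named after their values were seen. Robo4 was at 36.3 ± 3.10 and 48.2 ± 6.98 (log2 difference 0.39, limma adjusted p = 0.103), with no overlap of the groups. Egfl7 was at 100.9 ± 15.4 and 139 ± 24.4 (log2 difference 0.45, limma adjusted p = 0.113), and Tie1 at 149 ± 11.2 and 178 ± 12.5 (0.26, limma adjusted p = 0.144), the latter with no overlap. Of the 12 endothelial markers, 2 had no overlap, against 17.4% of all genes. Relative to the endothelial sum, Fabp4 was 1.35-fold higher in edKO (exact permutation test, 2-sided, p = 0.0857, adjusted p = 0.129) and Gpihbp1 1.36-fold higher (exact permutation p = 0.114, adjusted p = 0.147), with overlap of the groups in both. Cd36 was 1.27-fold lower relative to it (exact permutation p = 0.257, adjusted p = 0.289). The part of cell numbers in the differences of Fabp4 and Gpihbp1 was not tested.

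**Figure D4:**
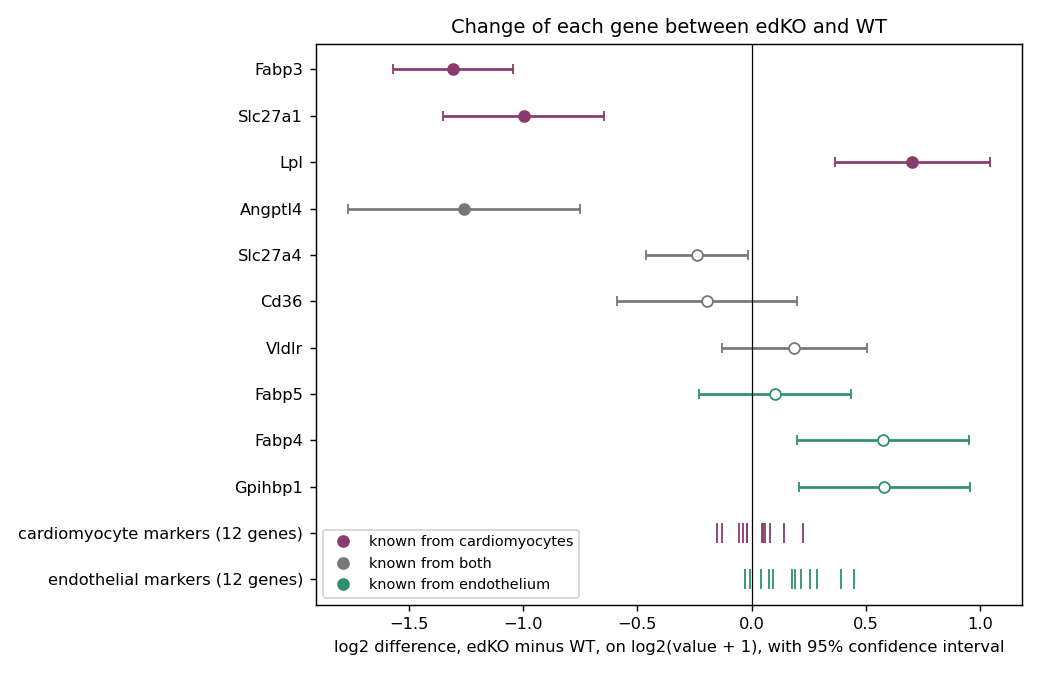
Log2 difference of each gene between edKO and WT (horizontal axis, edKO minus WT on log2(value + 1)), with its 95% confidence interval from limma; filled points passed an adjusted p of 0.05, colours give the cell type each gene is known from, and ticks are the 12 cardiomyocyte and 12 endothelial marker genes. Fabp3, Slc27a1 and Angptl4 lie below 0 and Lpl above, while the cardiomyocyte markers lie between -0.15 and 0.22 and the endothelial markers between -0.03 and 0.45.

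Fat cells also hold much Fabp4, Lpl and Cd36. Of 9 fat cell markers, Lipe was analysed and 8 were not found among the genes of the table, Adipoq, Plin1 and Ucp1 among them. Lipe, hormone-sensitive lipase, which heart muscle also makes, was lower in edKO (46.5 ± 6.25 to 23.2 ± 3.75, limma adjusted p = 0.0031). The 8 macrophage markers summed to 128 to 140 in WT and 110 to 155 in edKO, with Csf1r at 26.3 ± 1.57 and 22.6 ± 3.77 and 0 of 8 called. The 8 fibroblast markers summed to 5558 to 7052 and 3408 to 6965, with Col1a1 at 1137 ± 196 and 822 ± 294. None of the 8 was called by limma, 7 had negative differences, and the median was -0.36 on the log2 scale. Of the 4 lymphatic, 5 endocardial and 8 mural markers, 0 were called by limma. Erythroid markers summed to 24103 to 40446 in WT and 27777 to 53861 in edKO, highest in WT replicate 1 within WT and in edKO replicate 5 within edKO. Lipe was named after its values were seen.

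Some hearts stood out over the 10 genes together. Among the edKO hearts, replicate 33 had the lowest level of 8 genes and the highest of the other 2, Fabp5 and Slc27a4. Replicate 5 had the highest level of 5 genes. How often each edKO heart was lowest or highest over all genes was not counted. Replicate 33 had the most reads (24912403) and, in the fit with library weights over all genes, the lowest weight (0.429). The labels give neither sex nor litter. Xist was at 167, 441 and 179 in WT replicate 1 and edKO replicates 5 and 6, and at most 1.93 in the other 4 libraries. Among the 3 libraries with high Xist, Fabp4 and Gpihbp1 had log2 differences of 0.30 and 0.53, and among the 4 with low Xist 0.63 and 0.49. WT and edKO did not overlap in either set for these genes, but the high Xist set holds only 1 WT heart. Fabp5, Slc27a4 and Vldlr, which were not called, did not overlap there either, nor did Cd36, also not called, in the low Xist set. The share of all genes without overlap in each set was not counted. Fabp3, Slc27a1, Angptl4 and Lpl had log2 differences of -1.43, -0.63, -1.10 and 0.90 among the 3 libraries and -1.27, -1.25, -1.48 and 0.53 among the 4. For these genes the groups were apart over all 7 libraries, so they could not overlap within either set. These within-set values are given with no test.

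Other genes of lipoprotein and fatty acid uptake were called about as often as all genes. Of 94 listed genes 74 were analysed, and 4 were lower in edKO, none higher and 70 not called by limma, so 5.41% were called against 4.21% of all genes. Their median log2 difference was 0.00.

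Among 9 further transport and binding protein genes, Dbi was called. It encodes the acyl-CoA binding protein, which holds activated fatty acids in the cytosol. It was at 219.8, 151 and 160 in WT replicates 1, 2 and 28 and at 77.0, 70.9, 69.3 and 92.8 in edKO replicates 5, 6, 15 and 33. The groups were well apart, and the fall was 2.28-fold by the ratio of means (limma adjusted p = 0.00097), and it was called in all 7 fits that left out 1 library.

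Of 16 genes that mature, anchor or control the lipase, none was called by limma. The most abundant were Hspg2, which encodes the heparan sulfate proteoglycan perlecan, at 648 ± 38.8 in WT and 597 ± 76.5 in edKO, and Apoe, an apolipoprotein, at 216 ± 25.1 and 197 ± 40.6. None of 15 genes of CD36 palmitoylation, caveolae and surface traffic was called, with the caveolar coat genes Cav1 at 526 ± 82.4 and 536 ± 57.6 and Cavin1 at 414 ± 25.3 and 395 ± 48.6. Among 13 genes that control fatty acid passage through endothelium, Apln, a peptide hormone of blood vessels, was lower in edKO (29.9 ± 3.21 to 13.4 ± 6.27, limma adjusted p = 0.046). That call was lost in 4 of the 7 fits that left out 1 library (highest adjusted p 0.171).

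**Figure D5:**
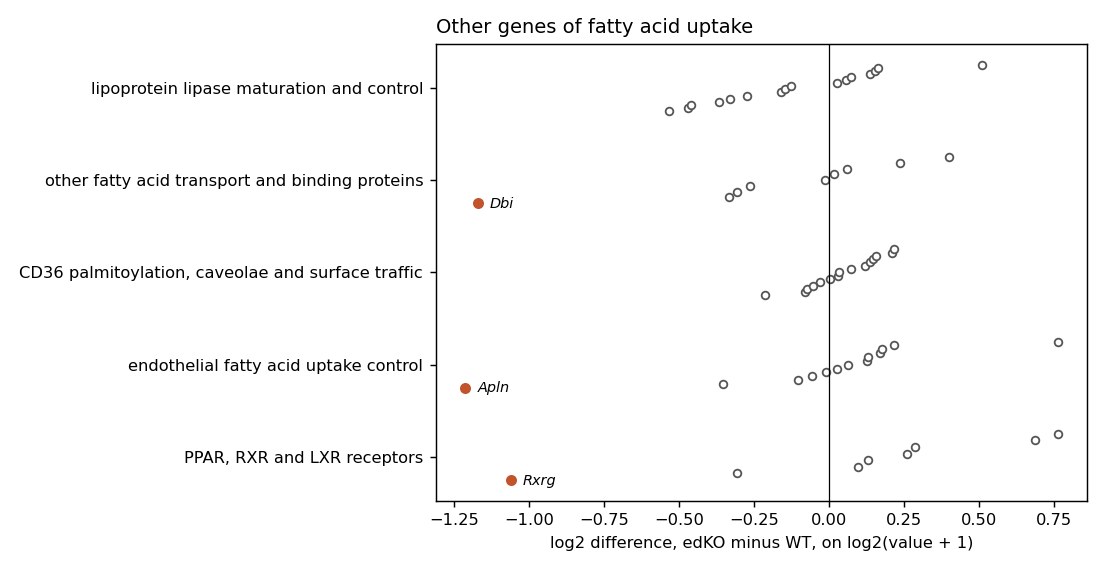
Log2 difference between edKO and WT (horizontal axis) of other genes of uptake, by list, without the lipoprotein receptors; each circle is a gene, and filled circles passed a limma adjusted p of 0.05. Dbi, Apln and Rxrg are the 3 filled circles, all below 0, and Pparg stands in 2 lists.

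Of the receptors that could act on these genes, 1 of 8 was called, beside 4.21% of all genes. Rxrg, the retinoid X receptor gene that was not deleted, went from 2.86 ± 0.522 to 0.878 ± 0.441 (limma adjusted p = 0.029), and lost its call in 5 of the 7 fits that left out 1 library. Among fits on all libraries, Rxrg did not pass with edgeR, voom or Xist as a covariate, and passed in the others that kept it. The deleted genes are summed over all their exons and all cells of the heart, so their levels do not check the genotype. Rxra was at 61.6 ± 1.99 and 66.1 ± 6.74 (limma adjusted p = 0.632) and Rxrb at 48.2 ± 3.18 and 38.9 ± 4.00 (0.139). The PPAR genes, given after their values were seen, did not pass in this fit. Pparg was at 5.76 ± 1.65 and 10.6 ± 3.07 (log2 difference 0.76, limma adjusted p = 0.092). Ppara was at 4.57 ± 1.38 and 7.96 ± 2.12 (0.69, limma adjusted p = 0.137). Ppard was at 17.9 ± 2.82 and 19.7 ± 2.65 (0.13, limma adjusted p = 0.668).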

How the data were processed

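Per the labels' protocols, RNA of whole hearts was prepared with the RNeasy Mini kit, its cDNA made and amplified with the Ovation system from 1 to 10 ng, and single reads of 61 nt taken. Cutadapt, RSEM 1.3.1, limma and GRCm38 are named in the submitters' processing notes, with no order or annotation release. The deposited signal is normalised reads per 1000000 for 13788 genes. Each value equals reads plus 0.5 over an effective library size, and 100% of 96516 values came out whole. The tolerance was 1e-06 of the read count. Every listed gene had at least 1 read per 1000000 in 3 or more libraries, which all 10 members met. No pair of libraries agreed within sampling noise (chi-square per degree of freedom 9.06 to 56.05). The labels call the hearts biological replicates. Floors cover counting error only, and scaling hides a change shared by most transcripts.

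The test was limma 3.58.1 (R 4.3.3), 2-sided, on log2(value + 1), which understates the change of low genes, with a variance trend and no covariate. Recovered reads went to edgeR 4.0.16, DESeq2 1.42.0 and voom as alternatives, beside other pseudocounts, filters, weights, scalings and fits without 1 library. Ratios were tested by exact permutation. Of the identifiers, 13716 (99.5%) matched GENCODE M21, whose principal transcripts gave lengths. Named were the members, Rxra, Rxrb, Rxrg, up to 5 called genes of each list or else its 2 most abundant, and defining markers. Members, lists and rules were chosen with earlier results of these data known. Some results that these rules name are not reported here.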

Additional observations from a re-analysis of the deposited data

Results flagged for a closer look

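Over 29 sets of 4 edKO values, 2 had a heart far from the other 3, and chance alone gives about 1 in 20. Cavin1 stood at 467 in edKO replicate 33 and at 359.5 to 377 in the others. The ratio of Lpl to Gpihbp1 was 23.7 in edKO replicate 15 and 18.4 to 19.2 in the others.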

How the results depend on the processing

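No paired analysis was made, because the labels give no litter or batch by which hearts could be paired. Fabp3 and Slc27a1 were called lower in all 19 other fits, with log2 differences of -1.40 to -1.22 and -1.11 to -0.87. Over all genes 580 were called, against 370 without the trend, 364 with Xist as a covariate, 1284 with library weights and 1052 with DESeq2, and 222 to 1177 on leaving out 1 library. The count of members called lower stayed at 3 outside the fits that left out 1 library, where it was 2 to 3. The count called higher was 0 without the mean-variance trend and with Xist as a covariate, 3 (Lpl, Fabp4 and Gpihbp1) with library weights and with DESeq2, and 0 to 3 on leaving out 1 library. Without WT replicate 1 the 1 gene called higher was Fabp4, not Lpl. The adjusted p of Lpl was 0.068 without the trend and 0.067 with Xist. Of the listed uptake genes, 2 (Dbi among them) were called lower with Xist as a covariate and with edgeR, and 2 to 6 on leaving out 1 library. Those called higher were 1 with library weights (Pparg), 2 with DESeq2 (Pparg and Sdc4) and 0 to 2 on leaving out 1 library.

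With 1 library left out, the log2 difference of the ratio of Fabp3 to Fabp4 was -2.02 to -1.76, of Angptl4 to Lpl -2.13 to -1.85, and of Lpl to Gpihbp1 -0.054 to 0.23, with -0.050 by group medians. Of the ratios to cardiomyocyte markers, Fabp3 lay at -1.34 to -1.23, Lpl at 0.62 to 0.86 and Slc27a1 at -1.14 to -0.87. Of those to endothelial markers, Fabp4 lay at 0.34 to 0.56, Gpihbp1 at 0.30 to 0.60 and Cd36 at -0.46 to -0.12. The differences of 2 genes that were not called changed sign: Fabp5 ranged from -0.021 to 0.21 and Vldlr from -0.0072 to 0.30 on leaving out 1 library. Among the 3 libraries with high Xist Fabp5 was at -0.18, and among the 4 with low Xist Vldlr was at -0.046, a split chosen after seeing the data. The cause of these changes was not tested. With 7 libraries no ratio can go below an exact p of 0.0286.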
